A study of Mus musculus with 6 samples.

Results

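To follow the DNA repair genes of depolarized neurons, 43 genes of double-strand break repair and of the Fanconi anaemia pathway were taken by symbol from the 43432 genes listed in the RNA-seq tables. The symbols were chosen by pathway, and all 43 were found (Mre11 under its older symbol Mre11a). They comprise 12 genes of homologous recombination, 10 of the Fanconi pathway, 4 of break sensing and end resection, 8 of damage signalling, 7 of non-homologous end joining and the RecQ helicases Blm and Wrn, with 2 genes in that last group. The cells were cortical neurons of wild-type C57BL/6 mouse embryos at E16.5, with males and females pooled, grown in vitro for 7 days. All cultures, the 0 h group included, had been silenced overnight with 1 μM TTX, a sodium channel blocker, and 100 μM DL-AP5, an NMDA receptor antagonist. They were then held in 55 mM KCl, which depolarizes the membrane and lets calcium enter, during 0 h, 2 h or 6 h. Each time point had 2 replicates, described in the study as biological, and the labels do not say whether they came from separate litters or dissections, so the p-values measure the spread between these libraries.

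Double-strand breaks are sensed by the MRE11-RAD50-NBN complex, which recruits the kinase ATM, while ATR responds to single-stranded DNA. A break is then rejoined directly by non-homologous end joining, in which the KU70-KU80 ring holds the ends, DNA-PKcs and Artemis process them and XRCC4-LIG4 seals them, or copied from a sister chromatid by homologous recombination, in which BRCA1 and BRCA2 take part. The Fanconi core complex attaches ubiquitin to FANCD2 and FANCI to start the repair of crosslinks between DNA strands. Homologous recombination belongs to dividing cells, which have a sister chromatid, and neurons that have left the cell cycle rely mainly on end joining. Neuronal activity is known to be followed by breaks at the promoters of some early-response genes. The comparison here reads the mRNA levels of repair genes and measures neither breaks nor their repair.

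Libraries held 25959298 to 28573067 expected counts, with 18767 to 19212 genes detected in each, and the members took 0.0763% to 0.0919% of all counts. Fos, an immediate-early gene that marks depolarization, had normalized counts of 38.2 and 34.6 at 0 h and of 6939 and 8222 at 2 h. The summed level of 10 neuronal markers was 5690 to 6096 TPM over the 6 libraries, while single markers moved both ways. At 6 h against 0 h, 1 of the 10 was called lower and 2 higher. Of the 10, 2 fell and 7 rose by the adjusted p alone, beside 21.7% and 23.7% of all genes. Their median log2 fold change was 0.39, beside 0.00 over all genes. The one called lower was Tubb3, a neuronal tubulin, with normalized counts of 36418 and 36743 without KCl and of 16727 and 19620 after 6 h (log2 fold change -1.01 ± 0.14, adjusted p = 1.37e-12). Markers of other cells were present as well. The 7 astrocyte markers summed to 755 to 827 TPM at 0 h, 713 to 754 TPM at 2 h and 552 to 578 TPM at 6 h, and the 6 markers of the oligodendrocyte lineage summed to 94.9 to 146 TPM over all libraries. The 6 markers of neural progenitors summed to 274 to 302 TPM at 0 h, 328 to 393 TPM at 2 h and 598 to 616 TPM at 6 h. Of these, Vim (1.42 ± 0.14) and Nes (1.08 ± 0.14), genes of intermediate filaments, were called higher at 6 h against 0 h, Hes5 (-1.81 ± 0.38) was called lower, and Eomes was the 1 marker under 1 TPM at 0 h. The 7 microglial and endothelial markers summed to at most 7.33 TPM, with Cx3cr1 and Cldn5 at or near 0. The 2 h replicates differed along GC content. Over the 43 members, the log2 ratio of replicate 1 to replicate 2 at 2 h had a median of 0.47 in the 22 members at or under the median GC content of 45.8% and of -0.03 in the other 21.

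More of the members were lower than higher after 6 h of KCl. Calls were made with DESeq2 and needed both an adjusted p of 0.05 or less and a change beyond a factor of 2. At 6 h against 0 h, 14 of the 43 members were called lower and 1 was called higher, beside 10.2% and 9.10% of all genes tested. By the adjusted p alone, 23 members fell and 4 rose (21.7% and 23.7% of all genes), and 16 did not pass. At 2 h against 0 h, 5 members were called lower and 0 higher, where 5.94% and 3.62% of all genes were called. By the adjusted p alone, 11 members fell and 2 rose at 2 h (14.2% and 12.3% of all genes). At 6 h against 2 h, 14 members were called lower and 1 higher, beside 8.02% and 10.1% of all genes, and the adjusted p alone gave 18 lower and 9 higher (21.2% and 24.1% of all genes). With edgeR, 0 members were called higher at 2 h as well, and 3 members had an unadjusted p under 0.05 in that direction with DESeq2. The count of 5 called lower at 2 h became 2 without replicate 1 and 3 without replicate 2 of the 0 h group. Over all genes, the count of 1000 became 720 and 760 in the same settings. With offsets for GC content, the members called at 6 h against 2 h became 14 lower and 4 higher. Over all genes, the calls became 1306 lower and 1551 higher in place of 1316 and 1654. In all, 20 members were called in at least one comparison (46.5%, beside 29.9% of all genes tested in the 3 comparisons) and 23 in none, and 8 members passed the adjusted p in no comparison (Rad51b, Rad54l, Rad54b, Fancm, Rbbp8, Chek2, Nhej1 and Dclre1c). The members were chosen by function with earlier results of these data known, and their counts are a description.

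The median log2 fold change over the 42 members whose mean normalized count reached 10 was -0.29 at 2 h and -0.84 at 6 h, both against 0 h, while the medians over the 14668 genes at that level were 0.01 and 0.00. At 6 h against 2 h it was -0.46, beside 0.00 over all genes. Without replicate 1 of the 2 h group, the last difference from all genes moved from -0.46 to -0.17, and that at 2 h against 0 h from -0.30 to -0.46. Scaling by library totals lowered the median over all genes by 0.25 at 6 h, and the difference between members and all genes stayed at -0.84. Under that scaling 20 members were called lower and 0 higher at 6 h against 0 h, and the calls over all genes were 2564 lower and 1032 higher in place of 1761 and 1572. In a bulk sample, fewer cells of a type and less RNA per cell cannot be told apart.

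**Figure D1:**
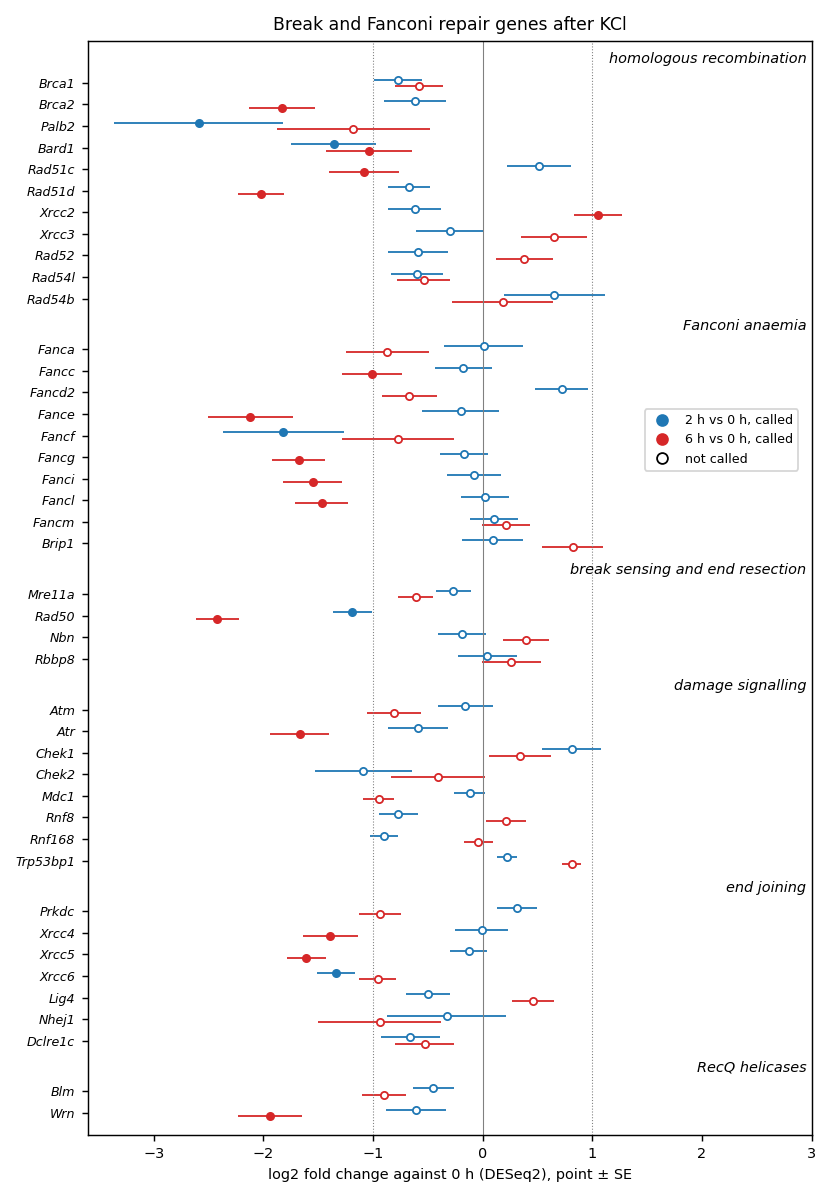
Log2 fold changes of 42 members (Rad51b, with counts near 0, is left out) against 0 h at 2 h (blue) and 6 h (red), fitted with DESeq2 and drawn with SE, by pathway. Filled points were called, and the dotted lines mark the fold threshold. At 6 h the filled points lie on the lower side except Xrcc2, and at 2 h the 5 filled points are Palb2, Bard1, Fancf, Rad50 and Xrcc6.

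Several courses over time can be read from the tests by the adjusted p alone. The largest group, 18 members, was lower at 6 h than at both 0 h and 2 h, which is 41.9% beside 15.9% of all genes tested. It holds Brca2, Rad51c, Rad51d, 7 Fanconi genes (Fanca, Fancc, Fancd2, Fance, Fancg, Fanci and Fancl), Rad50, Atm, Atr, Mdc1, Prkdc, Xrcc4, Xrcc5 and Wrn. Of the 14 members called lower at 6 h against 0 h, 12 were also called lower against 2 h. These comparisons share the 6 h libraries, and the overlap was not counted over all genes. At 2 h against 0 h, 11 of the 14 had not passed the adjusted p, which does not show that they were unchanged. Their log2 fold changes at 2 h ran from -0.62 (Brca2) to 0.51 (Rad51c). A second course, a fall at 2 h followed by a rise from 2 h to 6 h, was found in 4 members, Xrcc2, Rnf8, Rnf168 and Lig4, a share (9.30%) near that of all genes (8.67%). The last, lower at both 2 h and 6 h than at 0 h with no further change that passed the test, was found in Brca1, Bard1 and Xrcc6, which makes 3 members (6.98%, beside 3.08% of all genes). Rad51d and Rad50 fell in every comparison. Trp53bp1, Brip1, Xrcc2 and Lig4 were higher at 6 h than at 0 h.

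The members' promoters were read where a RefSeq entry of the GRCm38.p6 build was given, which was so for 34 of the 43. The table did not list Rad54b, Rad50, Prkdc, Fancd2, Rad51d, Wrn, Xrcc2, Rbbp8 and Nbn. Each promoter runs from 250 bases before the RefSeq start to 50 bases after it, and a RefSeq start can differ from the outermost end of the gene as annotated by GENCODE, as in Xrcc6. An E2F core, taken as any of TTTCCCGC, TTTGGCGC, TTTCGCGC, TTTGCCGC and TTTCCCGG on either strand, was held by 7 of the 34 (20.6%) and by 3.54% of 27025 promoters of the same length. E2F factors are known regulators of genes used in DNA replication and repair. The 7 were Bard1, Brca2, Chek2, Fancg, Mdc1, Rad51c and Xrcc6, of which 4 (Bard1, Brca2, Fancg and Rad51c) were among the 11 members with a promoter that were called lower at 6 h against 0 h. The full cyclic AMP response element TGACGTCA, the site of the activity-regulated factor CREB, was held by Brca2 and Rad51c only, 2 of 34 (5.9%), beside 1.88% of all promoters. Its shorter core TGACG, which lies within the full element, was held by 14 (41.2%, beside 21.02%). The cell cycle element CHR, searched as TTTGAA and TTCGAA, was held by 3 (8.8%, beside 19.44%), CCAAT by 20 (58.8%, beside 37.92%) and the AP-1 site TGANTCA by 0 (beside 7.93%). A match of letters is a description and does not show that a factor binds there.

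The 250 bases before the start are shown for the 5 members that hold an E2F core and were called lower in any comparison, so that the place of each motif can be seen. They are given 5′ to 3′ on the strand of the gene, in lower case, with E2F cores and full cyclic AMP response elements in capitals. In Brca2 (chr5:150522371-150522620, plus strand) the E2F core begins 168 bases and the response element 20 bases before the start, and in Rad51c (chr11:87404507-87404756, minus strand) the response element begins 45 bases before it. The core begins 52 bases before the start in Fancg (chr4:43010302-43010551, minus strand), 209 in Bard1 (chr1:71102973-71103222, minus strand) and 46 in Xrcc6 (chr15:82016119-82016368, plus strand).
Brca2: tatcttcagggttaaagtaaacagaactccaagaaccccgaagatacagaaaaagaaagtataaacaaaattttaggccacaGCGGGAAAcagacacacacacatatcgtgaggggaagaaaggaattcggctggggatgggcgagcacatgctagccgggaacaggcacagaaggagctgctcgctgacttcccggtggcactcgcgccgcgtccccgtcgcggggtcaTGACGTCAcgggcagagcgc
Rad51c: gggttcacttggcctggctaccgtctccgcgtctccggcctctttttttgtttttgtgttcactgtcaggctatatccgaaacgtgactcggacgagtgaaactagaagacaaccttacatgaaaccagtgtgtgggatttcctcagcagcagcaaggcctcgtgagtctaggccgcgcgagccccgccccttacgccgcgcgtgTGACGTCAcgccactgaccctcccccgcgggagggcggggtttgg
Fancg: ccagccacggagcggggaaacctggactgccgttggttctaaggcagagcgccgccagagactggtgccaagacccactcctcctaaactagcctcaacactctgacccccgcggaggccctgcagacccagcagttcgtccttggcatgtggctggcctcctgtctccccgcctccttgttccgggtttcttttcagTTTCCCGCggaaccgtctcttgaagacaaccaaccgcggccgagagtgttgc
Bard1: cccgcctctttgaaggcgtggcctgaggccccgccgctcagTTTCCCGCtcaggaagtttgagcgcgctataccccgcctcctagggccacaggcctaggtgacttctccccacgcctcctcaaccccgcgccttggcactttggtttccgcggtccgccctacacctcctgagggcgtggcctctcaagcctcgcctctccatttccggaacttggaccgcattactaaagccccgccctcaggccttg
Xrcc6: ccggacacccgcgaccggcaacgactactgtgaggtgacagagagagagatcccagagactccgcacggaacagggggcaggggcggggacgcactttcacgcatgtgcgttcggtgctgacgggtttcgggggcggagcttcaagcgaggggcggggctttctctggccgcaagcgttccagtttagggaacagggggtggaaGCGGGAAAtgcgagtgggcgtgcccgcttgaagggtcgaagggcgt

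For the other matches, a window of 30 bases is enough. Chek2 (chr5:110839820-110839849, plus strand) and Mdc1 (chr17:35841471-35841500, plus strand) hold a core upstream of the start and were called in no comparison, and the core of Rad51c (chr11:87404477-87404506, minus strand) lies just after its start.
Chek2: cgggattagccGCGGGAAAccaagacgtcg
Mdc1: tcttcagcctgTTTCCCGCcggtagccgca
Rad51c: gtttccagcgcTTTCGCGCctcttgctcta

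Among the genes of homologous recombination, 4 of 12 were called lower at 6 h against 0 h (Brca2, Bard1, Rad51c and Rad51d), 33.3% beside 10.2% of all genes, and 1 higher (Xrcc2), 8.33% and so near the 9.10% of all genes. The median log2 fold change of the 11 members whose mean normalized count reached 10 was -0.62 at 2 h and -0.58 at 6 h against 0 h. Brca2 (ENSMUSG00000041147, chr5:150522630-150570329), which works on resected single-stranded DNA, had normalized counts of 267 and 224 without KCl, 187 and 133 at 2 h, followed by 78.1 and 60.2 at 6 h. The 3 groups did not overlap, and both 6 h libraries were the lowest. Its log2 fold change at 6 h against 0 h was -1.83 ± 0.30 (SE, adjusted p = 7.10e-09), a 3.55-fold lower level, and at 6 h against 2 h it was -1.21 ± 0.30 (adjusted p = 2.62e-04), which without replicate 1 of the 2 h group became -0.94 and was no longer called. The change at 2 h, -0.62 ± 0.28, did not pass (adjusted p = 0.0926).

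Among the partners of BRCA2, falls passed the test at 2 h already. Brca1 and Bard1 encode the 2 subunits of a ubiquitin ligase that acts before BRCA2, and Palb2 encodes the bridge between BRCA1 and BRCA2. Bard1 had normalized counts of 85.2 and 86.8 without KCl, 39.9 and 26.9 at 2 h, and finally 43.9 and 39.8 at 6 h. Both treated groups lay below 0 h and overlapped each other. The log2 fold change of Bard1 was -1.36 ± 0.39 at 2 h (adjusted p = 0.00308) and -1.04 ± 0.39 at 6 h (adjusted p = 0.0177). These counts were low, and the 2 h call was lost without either 0 h replicate (-1.37 and -1.34) and without replicate 2 of 2 h (-1.12). The 6 h call was lost without any one library of the 0 h or 6 h group (-1.11 to -0.97). Brca1 fell with Bard1 but by less than a factor of 2, from 217 and 214 normalized counts to 130 and 124 at 2 h and 151 and 139 at 6 h, with log2 fold changes of -0.77 ± 0.22 (adjusted p = 0.00329) and -0.58 ± 0.22 (adjusted p = 0.0220). Nbr1, which starts 194 bases from Brca1 on the opposite strand, stood at -0.09 ± 0.10 at 2 h (adjusted p = 0.613) and -0.57 ± 0.10 at 6 h (adjusted p = 1.50e-07). Palb2 had 50.6 and 29.5 normalized counts at 0 h, 3.0 and 10.3 at 2 h, then 21.4 and 14.0 at 6 h, so its 2 h values rest on very few reads. The log2 fold change of Palb2 at 2 h was -2.59 ± 0.77 (adjusted p = 0.00417), and the call was lost without replicate 1 of 0 h (-2.14) or of 2 h (-1.96). Dctn5, which starts 56 bases from Palb2 on the opposite strand, stood at 0.04 ± 0.11 at 2 h (adjusted p = 0.852) and -0.33 ± 0.11 at 6 h (adjusted p = 0.00679). At 6 h the change of Palb2 was -1.18 ± 0.70 and did not pass (adjusted p = 0.164).

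Rad51d, Rad51c and Xrcc2, whose products form a complex that acts in homologous recombination, went in opposite directions. Rad51d (ENSMUSG00000018841, chr11:82876434-82890614) had normalized counts of 372 and 385 without KCl, 226 and 250 at 2 h, followed by 96.3 and 90.3 at 6 h. Each group lay wholly below the one before it. The log2 fold change of Rad51d was -0.67 ± 0.19 at 2 h (adjusted p = 0.00286) and -2.02 ± 0.21 at 6 h (adjusted p = 1.92e-20), a 4.06-fold lower level. Rad51c had 91.4 and 101 normalized counts at 0 h, 146 and 128 at 2 h, and finally 40.7 and 50.6 at 6 h. The 2 h libraries of Rad51c were the highest and the 6 h libraries the lowest, with a log2 fold change from 2 h to 6 h of -1.59 ± 0.31 (adjusted p = 2.55e-06), while that at 2 h against 0 h, 0.51 ± 0.29, did not pass (adjusted p = 0.201). Against 0 h it was -1.08 ± 0.32 at 6 h (adjusted p = 0.00212), a call lost without replicate 1 (-1.15) or replicate 2 (-1.0) of 0 h and without replicate 1 of 6 h (-0.93).

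Xrcc2 (ENSMUSG00000028933, chr5:25689812-25705825), which joins RAD51C and RAD51D in one complex, was the only member called higher in any comparison. It had 159 and 143 normalized counts at 0 h, then 104 and 92.0 at 2 h, then 333 and 295 at 6 h. The 2 h libraries were the lowest and the 6 h libraries the highest, with no overlap. Its log2 fold change was -0.62 ± 0.24 at 2 h (adjusted p = 0.0328), 1.05 ± 0.22 at 6 h against 0 h (adjusted p = 7.77e-06) and 1.68 ± 0.23 at 6 h against 2 h (adjusted p = 4.03e-12). The value at 6 h against 0 h was near the fold threshold, at 0.98 without replicate 2 of 0 h, 0.96 without replicate 1 of 6 h and 0.81 with library totals, each with an adjusted p under 0.05. On the TPM scale, which is corrected for length, Rad51d stood at 10.6 ± 0.191 TPM (SD, n = 2) and Xrcc2 at 3.68 ± 0.170 TPM at 0 h. At 6 h the order was turned, with 2.74 ± 0.573 TPM for Rad51d and 7.40 ± 0.354 TPM for Xrcc2.

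Of the other recombination genes, Rad52, a factor that anneals single strands, had the highest level per length of the group at 0 h, 16.2 ± 6.29 TPM. Its normalized counts were 127 and 152 without KCl, 90.9 and 94.1 at 2 h, then 200 and 163 at 6 h, with the 3 groups apart. From 2 h to 6 h it rose by 0.98 ± 0.27 on the log2 scale (adjusted p = 8.85e-04), and neither change against 0 h passed. Xrcc3, the partner of RAD51C in a second complex, likewise rose from 2 h to 6 h by 0.96 ± 0.31 (adjusted p = 0.00607). Its exons overlap those of Klc1 on the other strand. Rad54l and Rad54b, DNA translocases of homologous recombination, passed in no comparison. Exons of Rad54b overlap those of Fsbp on the same strand, and its counts were not whole in any library. Rad51b had 0 to 8.99 normalized counts per library, too few for a fold change.

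**Figure D2:**
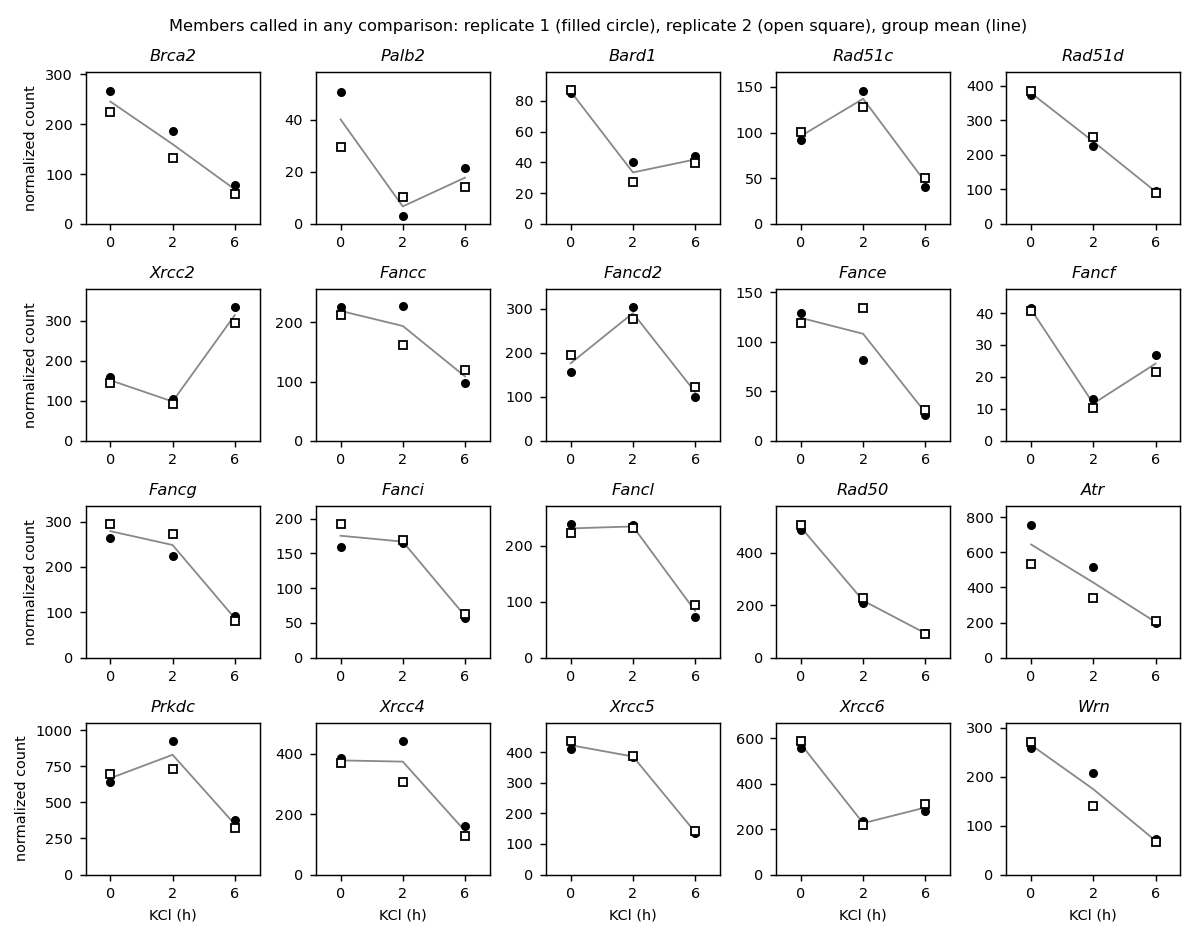
Normalized counts (y axis, from 0) against hours of KCl (x axis) for the 20 members called in any comparison, with both replicates and a line through the group means. Most panels fall from 2 h to 6 h, Palb2, Bard1, Fancf and Xrcc6 have their lowest mean at 2 h, and Xrcc2 is lowest at 2 h and highest at 6 h.

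Of the 10 Fanconi genes, 2 passed the adjusted p at 2 h, in opposite directions. Fancf was lower and Fancd2 higher, near the shares of all genes (14.2% and 12.3%). At 6 h, 7 were lower and Brip1 higher by the adjusted p, beside 21.7% and 23.7% of all genes. At 2 h against 0 h the median log2 fold change of the 10 genes was -0.03, with 1 called lower (10.0%, beside 5.94% of all genes). At 6 h it was -0.94, with 5 called lower (Fancc, Fance, Fancg, Fanci and Fancl), where 10.2% of all genes were. The core complex, the ubiquitin ligase of the pathway, is made of FANCA, FANCC, FANCE, FANCF, FANCG and FANCL among others. Fance (ENSMUSG00000007570, chr17:28313519-28326572), which links the core to FANCD2, had the largest fall of the pathway at 6 h. Its level per length at 0 h, 14.4 ± 4.92 TPM, had the highest mean of the pathway through replicate 1 (17.9 TPM), while in replicate 2 Fancl (11.8 TPM) and Fancg (11.4 TPM) stood higher. Its normalized counts were 129 and 119 without KCl, 81.9 and 134 at 2 h, followed by 25.7 and 31.2 at 6 h. The 0 h and 2 h libraries overlapped and both 6 h libraries lay far below them, with a log2 fold change of -2.12 ± 0.39 against 0 h (adjusted p = 4.26e-07) and -1.93 ± 0.40 against 2 h (adjusted p = 6.66e-06).

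Fancg, a scaffold of the core, had 264 and 294 normalized counts at 0 h, 224 and 273 at 2 h, and finally 92.0 and 81.7 at 6 h. Fancl, the ligase subunit, had 238 and 223 at 0 h, 236 and 232 at 2 h, then 72.8 and 93.6 at 6 h. In both genes the 0 h and 2 h libraries overlapped and the 6 h libraries stood apart below, with log2 fold changes at 6 h against 0 h of -1.68 ± 0.24 for Fancg (adjusted p = 2.45e-11) and -1.47 ± 0.24 for Fancl (adjusted p = 6.49e-09). Exons of Fancl overlap those of Vrk2 on the other strand, and its counts were not whole in any library, so part of its reads are shared with other genes. Fancc had 226 and 213 normalized counts at 0 h, 227 and 161 at 2 h, followed by 98.4 and 119 at 6 h. Its log2 fold change at 6 h, -1.01 ± 0.27 (adjusted p = 6.76e-04), was at the threshold and was lost without replicate 1 of 0 h (-0.97) or of 6 h (-0.88). Fanca fell by the adjusted p alone, by 0.87 ± 0.38 on the log2 scale (adjusted p = 0.0463).

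Fancf was the Fanconi gene called lower at 2 h and not at 6 h. Its normalized counts were 41.7 and 40.5 without KCl, 13.0 and 10.3 at 2 h, and finally 26.8 and 21.5 at 6 h, with the 3 groups apart and 2 h the lowest. The log2 fold change at 2 h was -1.82 ± 0.55 (adjusted p = 0.00591), and at 6 h, -0.77 ± 0.51, it did not pass (adjusted p = 0.223). The counts were few, and the 2 h call was lost when any one library of the 0 h or 2 h group was left out (-2.00 to -1.68).

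FANCD2 and FANCI form the pair that the core complex modifies. Fanci had 159 and 192 normalized counts at 0 h, 165 and 169 at 2 h, then 56.7 and 63.5 at 6 h, a log2 fold change at 6 h against 0 h of -1.55 ± 0.27 (adjusted p = 8.88e-08). It overlaps Polg on the other strand, and its counts were not whole in any library. Fancd2 rose first, from 157 and 196 at 0 h to 304 and 277 at 2 h, and then stood at 98.4 and 123 at 6 h. The 2 h libraries of Fancd2 were the highest and the 6 h libraries the lowest, with log2 fold changes of 0.72 ± 0.24 at 2 h (adjusted p = 0.0119), -0.67 ± 0.25 at 6 h (adjusted p = 0.0178), both against 0 h, and -1.39 ± 0.25 at 6 h against 2 h (adjusted p = 1.31e-07). Emc3, whose start lies 30 bases from that of Fancd2 on the opposite strand, had log2 fold changes of 0.10 at 2 h and -0.01 at 6 h that did not pass.

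The translocase Fancm and the helicase Brip1, which acts with BRCA1, showed no fall that passed the test. Fancm had 399 to 555 normalized counts over the 6 libraries with overlap between all groups and passed in no comparison. The 95% interval of its log2 fold change at 6 h against 0 h ran from -0.23 to 0.65. Brip1 had 94.1 and 75.8 normalized counts at 0 h, 88.9 and 92.0 at 2 h, followed by 141 and 159 at 6 h, and rose by 0.82 ± 0.28 on the log2 scale at 6 h (adjusted p = 0.00829).

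Within the break-sensing complex, Rad50 fell most, Mre11a fell less, and no fall of Nbn passed the test. Rad50 (ENSMUSG00000020380, chr11:53649519-53707319), the ATPase that holds the DNA ends, had 487 and 505 normalized counts at 0 h, 207 and 227 at 2 h, and finally 95.2 and 90.3 at 6 h. Each group lay wholly below the one before it. Rad50 changed by -1.19 ± 0.18 at 2 h (adjusted p = 2.37e-09) and -2.42 ± 0.20 at 6 h (adjusted p = 6.26e-31) on the log2 scale. The latter was the largest change at 6 h against 0 h among the 42 members whose mean normalized count reached 10. Mre11a, the nuclease, had 406 and 413 at 0 h, 340 and 338 at 2 h, then 265 and 271 at 6 h, and fell by 0.61 ± 0.16 at 6 h (adjusted p = 7.36e-04). Its exons overlap those of Ankrd49. Nbn, the subunit that binds ATM, had 411 and 373 at 0 h, 401 and 287 at 2 h, followed by 544 and 482 at 6 h. Its log2 fold change at 6 h was 0.39 ± 0.21 against 0 h (adjusted p = 0.132) and 0.57 ± 0.22 against 2 h (adjusted p = 0.0197). Rbbp8, which encodes the resection factor CtIP, passed in no comparison.

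On the TPM scale, the subunits of the complex stood at 12.6 ± 0.488 (Nbn), 8.64 ± 0.113 (Mre11a) and 7.67 ± 0.834 (Rad50) at 0 h, where Mre11a and Rad50 were close. At 6 h they stood at 14.4 ± 1.06, 5.10 ± 0.580 and 1.19 ± 0.0283 (SD, n = 2 for each), in the same order and farther apart.

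In damage signalling, 1 of 8 genes was called in a comparison against 0 h, the kinase Atr. At 6 h that is 12.5% called lower, near the 10.2% of all genes. Atr (ENSMUSG00000032409, chr9:95857597-95951781) had 759 and 531 normalized counts at 0 h, 515 and 341 at 2 h, and finally 196 and 210 at 6 h. The replicates at 0 h and 2 h were wide apart, yet the groups did not overlap, and the log2 fold change at 6 h against 0 h was -1.67 ± 0.27 (adjusted p = 8.78e-09). Against 2 h it was -1.08 ± 0.28 (adjusted p = 3.60e-04), and without replicate 1 of 2 h it was -0.74 and not called. Atm, the kinase of the double-strand break response, had 967 and 890 at 0 h, 1046 and 614 at 2 h, then 532 and 527 at 6 h, and fell by 0.81 ± 0.25 at 6 h (adjusted p = 0.00384). Mdc1, the scaffold that binds phosphorylated histone H2AX, went from 1372 and 1399 at 0 h to 763 and 667 at 6 h, a log2 fold change of -0.95 ± 0.14 (adjusted p = 5.78e-11), just short of a factor of 2.

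The ubiquitin ligases Rnf8 and Rnf168, which act after MDC1, dipped at 2 h. Rnf168 had 1224 and 1242 normalized counts at 0 h, 701 and 616 at 2 h, followed by 1235 and 1163 at 6 h. It fell by 0.90 ± 0.13 at 2 h (adjusted p = 3.71e-10) and rose by 0.86 ± 0.13 from 2 h to 6 h (adjusted p = 1.46e-09), and the 0 h and 6 h libraries overlapped. Rnf8 had 809 and 801 at 0 h, 406 and 540 at 2 h, and finally 971 and 897 at 6 h, with log2 fold changes of -0.77 ± 0.18 (adjusted p = 1.61e-04) and then 0.98 ± 0.18 (adjusted p = 3.05e-07). Exons of Rnf8 overlap those of the gene model Gm28043 on the same strand, and its counts were not whole in any library.

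Trp53bp1, which encodes the chromatin reader 53BP1 that favours end joining over resection, was the most abundant member. It stood at 178 ± 7.16 TPM at 0 h, 211 ± 13.4 TPM at 2 h and 384 ± 6.31 TPM at 6 h (SD, n = 2), while no other member was above 36.4 TPM on average at 0 h. Its normalized counts were 9001 and 8613 without KCl, 10088 and 10428 at 2 h, then 15551 and 15396 at 6 h, with no overlap between groups. It rose by 0.81 ± 0.09 on the log2 scale at 6 h against 0 h (adjusted p = 5.45e-18) and by 0.59 ± 0.09 against 2 h (adjusted p = 5.93e-10). Its exons overlap those of Tubgcp4 on the other strand, and its counts were not whole in any library. With Trp53bp1, the members summed to 519 to 528 TPM at 0 h, 444 to 447 TPM at 2 h and 603 to 604 TPM at 6 h. Without it, the other 42 summed to 345 to 346 TPM at 0 h, 227 to 243 TPM at 2 h and 214 to 224 TPM at 6 h. As a share of counts, which is not corrected for length, the 43 members took 0.0919% and 0.0916% at 0 h and 0.0868% and 0.0851% at 6 h. The effective length of Trp53bp1 had a log2 ratio of -0.48 ± 0.05 at 6 h against 0 h, which was not called. A shorter effective length gives a higher TPM for the same count. Of the checkpoint kinases, Chek1 had 121 and 102 normalized counts at 0 h and 224 and 167 at 2 h and rose by 0.81 ± 0.27 (adjusted p = 0.0132), and Chek2, with a log2 fold change of -1.09 ± 0.44 at 2 h, did not pass (adjusted p = 0.0519).

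**Figure D3:**
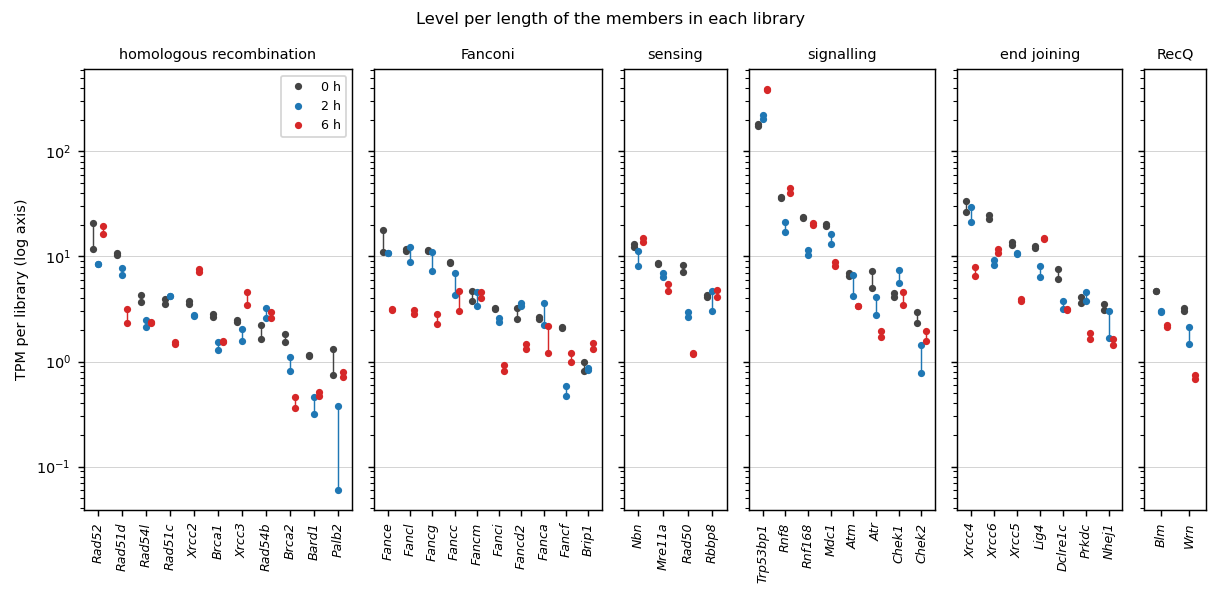
TPM in each library (log axis) for 42 members by pathway, ordered by their mean at 0 h, with both replicates of a time point joined by a line. Trp53bp1 stands far above the rest at every time point, and the red points of Rad50, Brca2, Wrn, Fance, Fancg, Fancl, Xrcc4 and Xrcc5 lie below their grey points.

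In end joining, both subunits of the KU ring were called lower, Xrcc5 at 6 h and Xrcc6 at 2 h. Xrcc5 (KU80, ENSMUSG00000026187, chr1:72307421-72394952) had 410 and 437 normalized counts at 0 h, 385 and 388 at 2 h, followed by 137 and 141 at 6 h. The change at 2 h was -0.13 ± 0.17 (adjusted p = 0.652) and at 6 h -1.61 ± 0.18 (adjusted p = 2.07e-17), a 3.05-fold lower level. Xrcc6 (KU70, ENSMUSG00000022471, chr15:81987835-82040085) had 558 and 589 at 0 h, 235 and 217 at 2 h, and finally 279 and 311 at 6 h. It was called lower at 2 h, by -1.34 ± 0.17 (adjusted p = 2.08e-13), and stood at -0.96 ± 0.17 at 6 h against 0 h (adjusted p = 1.03e-07). On the TPM scale, Xrcc6 and Xrcc5 stood at 23.6 ± 1.58 and 13.3 ± 0.707 at 0 h, 8.82 ± 0.665 and 10.8 ± 0.170 at 2 h, then 11.3 ± 0.615 and 3.86 ± 0.120 at 6 h (SD, n = 2 for each), so that their order differed at 2 h. Exons of Xrcc6 overlap those of Desi1 on the other strand. The difference between the 2 genes was not tested.

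The ligation pair also parted. Xrcc4, the scaffold of the ligase, had the highest level per length of the pathway at 0 h, 33.8 and 26.3 TPM in the replicates, with normalized counts of 387 and 368 at 0 h, 441 and 306 at 2 h, then 159 and 129 at 6 h. Its log2 fold change at 6 h against 0 h was -1.39 ± 0.25 (adjusted p = 2.23e-07). Its exons overlap those of Tmem167. Lig4, the ligase, had 598 and 564 at 0 h, 476 and 342 at 2 h, followed by 813 and 784 at 6 h, with a fall of 0.50 ± 0.20 on the log2 scale at 2 h (adjusted p = 0.0395) and a rise of 0.46 ± 0.19 at 6 h (adjusted p = 0.0396), both against 0 h. Abhd13, whose start is 21 bases away on the opposite strand, had log2 fold changes of -0.61 and 0.59, both past the adjusted p.

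Prkdc, the catalytic subunit of DNA-PK, had 638 and 697 normalized counts at 0 h, 926 and 733 at 2 h, and finally 375 and 321 at 6 h. It was called lower at 6 h against 2 h, with a log2 fold change of -1.26 ± 0.19 (adjusted p = 2.98e-10), and stood at -0.94 ± 0.19 against 0 h (adjusted p = 3.23e-06). Mcm4, a subunit of the replicative helicase that starts 466 bases away on the opposite strand, fell by 0.84 ± 0.15 at 6 h against 0 h (adjusted p = 6.47e-08). Dclre1c, which encodes Artemis, and Nhej1, the XLF factor, passed in no comparison. With 17.1 to 37.1 normalized counts per library, the log2 fold change of Nhej1 at 6 h was -0.94 ± 0.56 (adjusted p = 0.168), with a 95% interval from -2.04 to 0.16.

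Both RecQ helicases, which unwind recombination intermediates, were lower at 6 h. Wrn (ENSMUSG00000031583, chr8:33234384-33385527) had 258 and 272 normalized counts at 0 h, 208 and 141 at 2 h, then 72.8 and 65.6 at 6 h, a log2 fold change at 6 h against 0 h of -1.94 ± 0.29 (adjusted p = 1.25e-10). Purg, which starts 798 bases away on the opposite strand, was called higher at 6 h, by 1.26 ± 0.22 (adjusted p = 1.30e-07). Blm had 283 and 281 at 0 h, 209 and 205 at 2 h, followed by 149 and 154 at 6 h, and fell by 0.90 ± 0.20 at 6 h (adjusted p = 2.61e-05).

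The other genes of these pathways were taken from 4 lists with 84 genes. Of these, 17 were called lower and 5 higher at 6 h against 0 h (20.2% and 5.95%, beside 10.2% and 9.10% of all genes) and 11 and 3 at 2 h against 0 h (13.1% and 3.57%, beside 5.94% and 3.62%). Of the 83 with an adjusted p at 6 h against 2 h, 7 were called lower and 7 higher (8.43% each), near the shares of all genes (8.02% and 10.1%). Among 30 other recombination and resection genes, 8 were called lower at 6 h against 0 h (26.7%). Among those called were Recql5, a RecQ helicase that fell from 383 and 407 normalized counts at 0 h to 49.2 and 67.8 at 6 h, Mcm8, from 202 and 150 to 27.8 and 32.3, and Gen1, the Holliday junction resolvase, from 118 and 116 to 28.9 and 25.8. Slx4, a scaffold of nucleases, dipped at 2 h as Rnf168 did, from 1781 and 1953 to 640 and 778, and stood at 1640 and 1576 at 6 h. The genes named here were picked by the size of their change.

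Among 15 other Fanconi and crosslink genes, 2 were called lower at 6 h against 0 h (13.3%, near the 10.2% of all genes), the nucleases Fan1 (log2 fold change -1.48 ± 0.31) and Dclre1b (-1.04 ± 0.26), and among 14 other end joining genes 4 were (28.6%), led by the polymerases Poll (-2.05 ± 0.29) and Polm (-1.55 ± 0.45) and by Xrcc1 (-1.16 ± 0.22). Of the 25 other damage signalling genes, 3 were called lower and 3 higher at 6 h against 0 h (12.0% each, near the 10.2% and 9.10% of all genes), with a median log2 fold change of 0.01. Abraxas1, a partner of BRCA1 in ubiquitin binding, fell by 1.86 ± 0.45 at both times. Ppm1d, a phosphatase that switches off the ATM response, rose by 1.08 ± 0.13 at 2 h (adjusted p = 3.24e-14), and Rnf169, a reader of the RNF168 mark, rose by 1.99 ± 0.11 from 2 h to 6 h (adjusted p = 1.25e-65). In the 35 genes of excision and mismatch repair, the share called lower at 6 h against 0 h was 28.6% (10 genes), beside 32.6% of the members, with Mlh3 (log2 fold change -2.31 ± 0.21) among them, and 0 were called higher. The lists were not tested against each other.

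**Figure D4:**
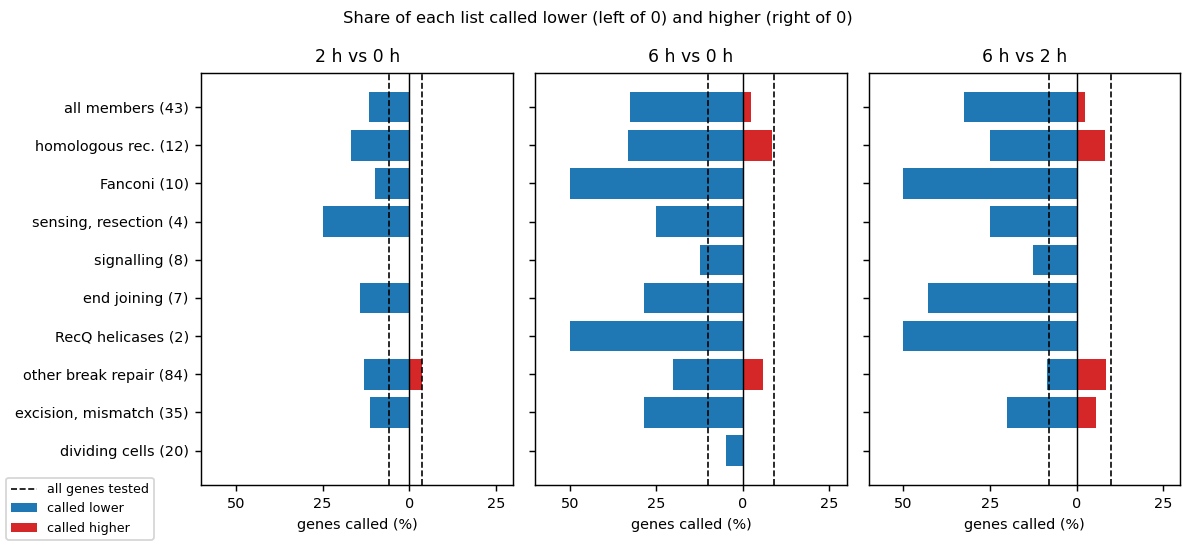
Share of genes called lower (blue, left of 0) and higher (red, right of 0) in each comparison for the members, their 6 pathways and other lists, with list sizes in parentheses and dashed lines at the shares over all genes tested. At 6 h against 0 h the members reach 32.6% lower beside 10.2% of all genes.

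Because homologous recombination and the Fanconi pathway serve dividing cells, 20 genes of dividing cells were read beside the members. None of them was under 1 TPM at 0 h, and they summed to 422 to 440 TPM at 0 h, 400 to 432 TPM at 2 h and 322 to 338 TPM at 6 h. At 6 h against 0 h, 1 of the 20 was called lower (Mcm6, 1109 and 1103 to 498 and 488 normalized counts) and 7 fell by the adjusted p alone. Mki67, which marks cycling cells, had 2279 and 2109 normalized counts at 0 h and 2571 and 2145 at 6 h, with a log2 fold change of 0.10 ± 0.17 (adjusted p = 0.667). The summed levels of the astrocyte markers given above were also lower at 6 h, whereas those of the progenitor markers were higher. Of the 7 astrocyte genes, 4 fell by the adjusted p alone, beside the same 21.7% of all genes. The part of any of these lists in the results for the members was not tested.

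The change at 6 h was also set beside simple features of the genes. Across the 43 members, Spearman's rho of the log2 fold change at 6 h against 0 h was 0.0305 with GC content, -0.22 with the span of the gene and 0.0216 with the TPM at 0 h, as descriptions across genes that are not independent replicates. The effective length reported by RSEM, which moves when a gene's mix of transcripts moves, was tested with limma for the 32 members with enough counts. In each comparison 0 members were called (0.0356%, 0.525% and 0.116% of all genes tested at 2 h against 0 h, 6 h against 0 h and 6 h against 2 h), while 3, 5 and 4 had an unadjusted p under 0.05. The log2 ratio farthest from 0 at 6 h against 0 h was that of Trp53bp1, -0.48 ± 0.05 (adjusted p = 0.0719).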

How the data were processed

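RNA-seq of 6 libraries (0 h, 2 h and 6 h of KCl, 2 replicates each, grouped by sample title) was analysed; libraries of bisulfite-treated RNA were left out. Per the study's methods, poly(A)-selected RNA was made into stranded libraries and reads were trimmed before mapping. The submitters' processing notes name RSEM 1.3.0, Bowtie2 2.2.9 and mm10. The strand setting and annotation release are not given in the sources used here, so members that overlap another gene are uncertain. The expected counts deposited by the authors are RSEM estimates that need not be whole and carry no normalization. TPM values, as deposited by the authors, are corrected for length and scaled to one total per library. The effective lengths, another unit deposited by the authors, are in bases. FPKM was not used.

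Expected counts were rounded, and 22515 genes with a count were fitted with DESeq2 1.42.0 (R 4.3.3) in one fit of 6 libraries with group as the only term, size factors by the median of ratios, Wald tests and Benjamini-Hochberg adjustment over all genes. Calls needed an adjusted p of 0.05 or less and an absolute log2 fold change above 1, as in the study's methods. Normalized counts are expected counts divided by size factors. Effective lengths were tested with limma 3.58.1 over genes whose mean expected count reached 100, with calls at an adjusted p of 0.05 or less and a log2 ratio of 0.2 or more. Scripts were tested on simulated data. Of the members, 14 overlap exons of another expressed gene, 12 of them on the other strand, by the GENCODE M21 annotation of the same build, from which coordinates are given. Depth was 25959298 to 28573067 expected counts per library, and intervals cover counting error and replicate spread only as far as 2 libraries show it.

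The members and the gene lists were chosen with earlier results of these data known. All 43 members are named. Values per library are given for those called and for the member of each pathway with the highest TPM at 0 h, and for some others by role after their values were seen. Of the other repair lists, up to 3 called genes per comparison with the largest change and a mean normalized count of at least 20 were eligible, and some were chosen after seeing values. Some genes of these lists are not reported here by name. Alternatives were edgeR 4.0.16, other scalings and filters, GC offsets, the replicate number as a term, a test against a fold change of 2 and leaving out each library.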

Additional observations from a re-analysis of the deposited data

Results flagged for a closer look

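In 5 members the change at 2 h and the change at 6 h, both against 0 h, had opposite signs and the difference between them (6 h against 2 h) was called. These were Rad51c (0.51 and -1.08, difference -1.59), Xrcc2 (-0.62 and 1.05, difference 1.68), Fancd2 (0.72 and -0.67, difference -1.39), Fancl (0.02 and -1.47, difference -1.49) and Prkdc (0.31 and -0.94, difference -1.26), all as log2 fold changes. Both changes against 0 h passed the adjusted p in Xrcc2 and Fancd2 only. With 2 libraries per group, no group was large enough to look for a single outlying library.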

How the results depend on the processing

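The 35 calls of members were recomputed under 15 alternatives, 525 checks in all, of which 471 kept the call and 0 changed sign. Apart from the test against a fold change of 2, 26 of the 35 kept the call in every setting. That test, which asks for more than a change beyond 1 on the log2 scale, left 0 members lower at 2 h against 0 h, 4 lower and 0 higher at 6 h against 0 h (Rad50, Rad51d, Xrcc5 and Wrn), and 0 lower and 0 higher at 6 h against 2 h. Members with an unadjusted p under 0.05 in that DESeq2 test numbered 2 lower at 2 h, 0 higher at 6 h against 0 h, and 4 lower and 1 higher at 6 h against 2 h. Over all genes it left 225 lower and 178 higher, 414 and 446, and 198 and 342 in the same order of comparisons. The adjusted p with no fold threshold gave 11 members lower and 2 higher, 23 and 4, and 18 and 9, and over all genes 2396 and 2073, 3744 and 4089, and 3478 and 3960. Library totals left 0 members and 1032 genes higher at 6 h against 0 h. GC offsets raised the members called higher at 6 h against 2 h from 1 to 4 (Xrcc2, Xrcc3, Rad52 and Rnf8), with or without the replicate block, and gave 17 members lower at 6 h against 0 h. Over all genes, GC offsets without the block gave 1551 higher at 6 h against 2 h in place of 1654. They gave 1780 genes lower at 6 h against 0 h in place of 1761. Leaving out one library gave 2 to 5 members lower at 2 h against 0 h (2 without replicate 1 and 3 without replicate 2 of 0 h). Over all genes, those 2 settings gave 720 and 760 lower in place of 1000. Leaving out a library gave 0 to 1 members higher at 6 h against 0 h, and 1 to 3 higher at 6 h against 2 h (3 without either 2 h library or without replicate 2 of 6 h). The median of the members minus that of all genes at 6 h against 2 h ran from -0.58 to -0.17, the latter without replicate 1 of 2 h. No member's effective length was called under any alternative run. Among members called lower at 6 h against 0 h, 27.3% of the 11 promoters held CCAAT in place of 58.8% and 36.4% an E2F core in place of 20.6%. The full cyclic AMP response element was held by 18.2% in place of 5.9%, and CHR by 18.2% in place of 8.8%. The 11 promoters are few and are part of those of all members, so these shares are a description. The causes of these differences were not tested.

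Libraries with the same replicate number share only a number per the labels. The correlation of their deviations from the group means, over 12290 genes, was 0.281, -0.00226 and 0.152 for the comparisons of 2 h with 0 h, 6 h with 0 h and 6 h with 2 h. After GC offsets it was 0.114, -0.0621 and 0.042 in the same order. With the replicate block, 5 members were lower and 0 higher at 2 h, 14 and 1 at 6 h against 0 h, and 14 and 1 at 6 h against 2 h. Low counts limit Rad51b, Palb2, Fancf and Nhej1.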

Other observations

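Beside the members, several genes that act downstream of the damage kinases or on chromatin were read after their values were seen. Cdkn1a, the p21 inhibitor of cell cycle kinases, had 1113 and 1299 normalized counts at 0 h and 2933 and 3126 at 6 h, a log2 fold change of 1.33 ± 0.13 (adjusted p = 1.29e-23). Mdm2, the ubiquitin ligase of p53, rose by 0.82 ± 0.12 at 6 h (adjusted p = 1.05e-10), and Ppm1d stood at 1.02 ± 0.13 at 6 h (adjusted p = 4.88e-13). H2afx, which encodes the histone variant H2AX that MDC1 binds, had 336 and 357 normalized counts at 0 h, 195 and 227 at 2 h, then 380 and 416 at 6 h. It fell by 0.72 ± 0.19 on the log2 scale at 2 h (adjusted p = 9.70e-04) and rose by 0.92 ± 0.19 from 2 h to 6 h (adjusted p = 6.38e-06). Rad9a, a subunit of the checkpoint clamp, had 211 and 225 at 0 h, 99.9 and 103 at 2 h, then 203 and 236 at 6 h, with a log2 fold change of -1.10 ± 0.23 at 2 h (adjusted p = 1.54e-05). Top2b, the topoisomerase of neurons, had 11458 and 5744 normalized counts in the 2 h replicates and passed in no comparison.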
